A study of Mus musculus with 24 samples.

Results

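The comparison of postnatal day 15 with postnatal day 13 in the mouse frontal lobe rests on 8 arrays, 4 at each day, and on 4 arrays at day 14 as midpoints, out of 24 arrays in the series. They were taken by the age in their labels. At each day there was 1 array from each of 4 groups, namely wild type (WT), Arg1 knockout (KO), Arg1 heterozygote (HE) and Arg1 knockout given a viral treatment (TR). The labels do not give the strain, the vector, the time of treatment or the sex of the animals, and do not say which animals were littermates. KO and WT belonged to labelled batch 1 and HE and TR to batch 2. Batch 3 held 12 arrays, 3 per group, all labelled day 14. The extraction protocol speaks of day 14 animals throughout, whereas the sample titles and ages list all 3 days. With 1 array per group and day, the differences below are averages over 4 different genetic and treatment states, and a day is represented by 4 animals.

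Arg1 encodes arginase 1, the liver enzyme that closes the urea cycle by cleaving arginine. In mice the days around the end of the second postnatal week include the opening of the eyes, steep growth in synapse number and the onset of bulk myelination in the forebrain. The title of the study ties arginase deficiency to faulty myelination at this age, so that the normal course of the tissue from day to day is the frame in which the groups stand. The deposited table lists Ensembl identifiers, and the files do not pair them with gene names. Genes are therefore described here by number, level and direction, 4 of them by identifier, without a role. The tissue could not be set against cell type markers for the same reason.

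The 12 arrays of batches 1 and 2 had medians of 6.73 to 6.79 and interquartile ranges of 3.54 to 3.72 on the log2 scale, and any pair of them correlated at 0.989 to 0.997 over genes. An array has no depth, so that the number of arrays sets the precision. Few genes were in 2 clearly separate levels. Over all 24 arrays, 5 genes had a gap of over 2 log2 with at least 4 arrays on either side. Of these, 3 went together over the arrays and 2 went mostly the opposite way. The latter 2 were also low in the HE array of day 15, where the gene with the widest gap was low. The gene with the widest gap, 4.94 log2, was high in 1 of the 4 day 13 arrays, 3 of the 4 day 14 arrays and 2 of the 4 day 15 arrays. WT was high and KO low at both day 13 and day 15, whereas TR was low at day 13 and high at day 15. None of the 5 genes was called between the days.

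Between day 13 and day 15, 309 of 18057 genes changed in the limma fit with a term for group and a term for day (adjusted p under 0.05, Benjamini-Hochberg), which is 1.71% of all genes. Of these 191 rose (1.06% of all genes) and 118 fell (0.653%). The changes were small. The median was 0.38 log2 among the genes that rose, a 1.3-fold difference, and -0.41 log2 among those that fell, or 1.33-fold, while the median over all genes was 0.0067. The genes that rose differed by 0.22 to 1.34 log2 and those that fell by -0.23 to -0.86 log2. A difference of at least 0.5 log2 was seen in 134 genes, of which 37 passed as higher and 31 as lower, and 66 did not pass. Before adjustment 2928 genes had a limma p under 0.05. Among unchanged genes a share of 0.05 would pass this mark by chance, here and in the like counts below. The count of genes called after adjustment was 28 with all 24 arrays in the fit. It was 447 when only the 3 KO arrays of batch 3 were kept out of it. Single arrays mattered too, with 34 genes without HE and 41 without KO of day 15, 120 to 184 without 1 array of day 13 and 202 without WT of day 14. With a term for the level of the 2-level gene of widest gap, 202 genes were called, 191 of them among the 309. The state of that gene is unbalanced between the days. The term gives HE the same state at days 13 and 15, though the 2 genes that went the opposite way changed level there. The labels do not give the sex of the animals, so that the part of sex in the day 15 minus day 13 differences was not tested.

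The called genes were mostly bright on the array. Their median signal was 9.05 log2 for those that rose and 8.82 for those that fell, against 6.77 over all genes. The brightest 4514 genes, with means from 8.57 log2 upward, held 119 that rose and 69 that fell, and the dimmest 4515, up to 4.94 log2, held 4 and 2. The standard error of the difference was also smaller in these brightest genes, at a median of 0.066 log2 against 0.09 in the dimmest, so that equal changes in dim genes were harder to call. The signal of a gene also depends on its probes, so brightness is not abundance.

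ENSMUSG00000091898 had the largest rise among the called genes and the smallest p of all genes. Its log2 value was 7.45 in WT, 7.40 in KO, 7.07 in HE and 7.47 in TR at day 13, and 8.52, 8.75, 8.69 and 8.80 in the same groups at day 15. All day 15 arrays lay above all day 13 arrays. The difference was 1.34 ± 0.091 log2 (SE, 4 arrays per day), or 2.53-fold, with a limma adjusted p of 2.58e-05. At day 14 it read 7.62 in WT, 7.43 in KO, 7.42 in HE and 7.87 in TR, so that the mean had gone 17.6% of the way.

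Among the 5 called genes that rose by at least 1 log2, ENSMUSG00000032487 came next under the naming rule, and its difference varied more between groups. It read 6.21 in WT, 5.53 in KO, 5.41 in HE and 6.46 in TR at day 13, and 6.84, 7.54, 7.17 and 7.11 at day 15. The day 15 arrays again all exceeded the day 13 arrays. The average was 1.26 ± 0.210 log2 (SE, 4 arrays per day), or 2.4-fold, with a limma adjusted p of 0.0112. It was made up of 2.01 in KO and 1.76 in HE but 0.63 in WT and 0.65 in TR. A test that the slopes over days are equal in the 4 groups gave a limma adjusted p of 0.885. The limma adjusted p of the average was 0.0756 without the HE array of day 15, 0.0544 without the KO array of day 15 and 0.065 without the HE group. It was 0.138 in batch 1 alone and 0.0656 with batch in place of group, and it passed the threshold in 22 of 27 alternatives.

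Among the called genes that fell, ENSMUSG00000044338 had the largest difference. It read 10.39 in WT, 9.18 in KO, 9.93 in HE and 9.41 in TR at day 13, and 9.95, 7.71, 8.83 and 8.99 at day 15. Every group was lower at day 15, yet the days overlapped, since WT stood above the other groups throughout. The difference was -0.86 ± 0.175 log2 (SE, 4 arrays per day), with a limma adjusted p of 0.0291. By group it was -1.47 in KO, -1.10 in HE, -0.44 in WT and -0.42 in TR. The limma adjusted p lay between 0.00539 and 0.442 over 28 alternatives and passed the threshold in 16 of them, and the difference was -0.60 without the KO array of day 15.

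ENSMUSG00000094777 fell by a more even amount. It read 8.05 in WT, 8.41 in KO, 8.68 in HE and 8.10 in TR at day 13, and 7.07, 7.82, 7.74 and 7.33 at day 15. All 4 day 15 arrays lay below the day 13 arrays. The difference was -0.82 ± 0.076 log2 (SE, 4 arrays per day), with a limma adjusted p of 0.000263. The day 14 values were 7.98 in WT, 8.68 in KO, 8.55 in HE and 8.10 in TR, close to those of day 13, with -2.3% of the way covered by the mean.

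**Figure D1:**
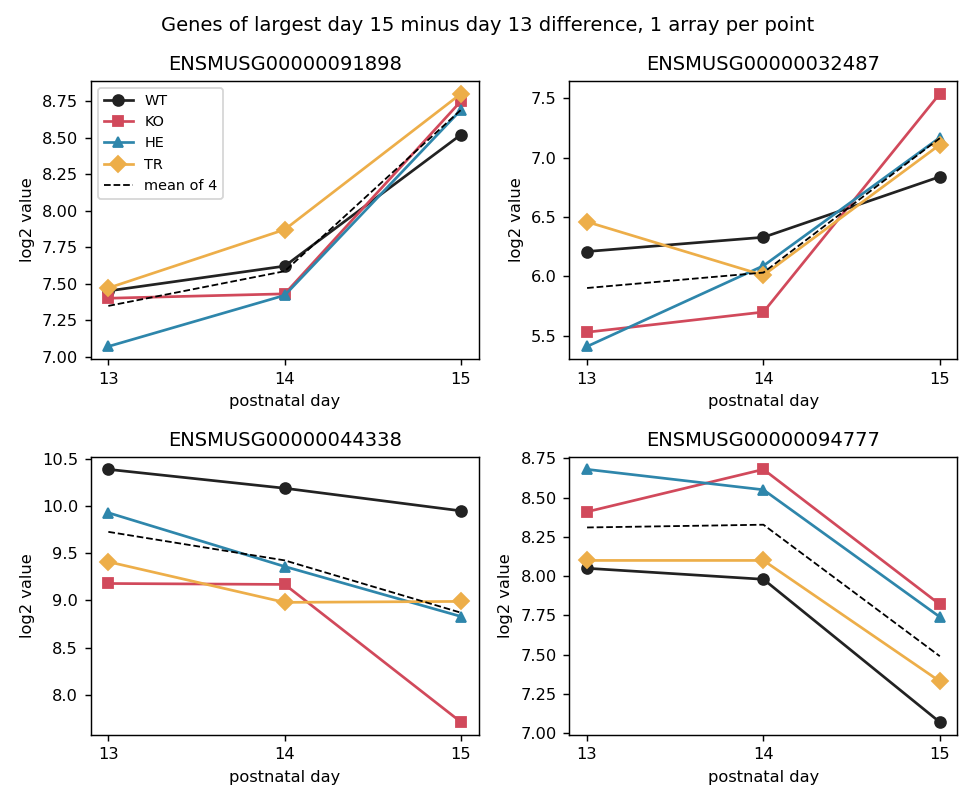
Log2 value of the 4 genes against postnatal day, 1 array per point, with 1 line per group and the mean of the 4 groups dashed. The mean of ENSMUSG00000091898 goes from 7.35 at day 13 to 7.58 at day 14 and 8.69 at day 15, and in each gene but ENSMUSG00000044338 every group changed more from day 14 to day 15 than from day 13 to day 14.

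Day 14 lay between the other days for most called genes. Its mean was between those of days 13 and 15 for 177 of the 191 genes that rose and 106 of the 118 that fell. Calling genes on a large difference between the outer days favours such a place for day 14. The share over all genes was not taken, so these counts only describe the called genes. The genes that rose had gone a median of 38.6% of the way by day 14 (quartiles 22.4% and 54.4%), and those that fell 36.1% (quartiles 22.3% and 48.2%). In log2 terms the genes that rose gained a median of 0.15 from day 13 to 14 and 0.24 from day 14 to 15, and the genes that fell moved by -0.13 and then -0.27. The departure of day 14 from the midpoint passed the threshold for 0 genes (0% of 18057), with a smallest limma adjusted p of 0.229 and 1158 genes at an unadjusted p under 0.05. The single steps were tested in the same limma fit and share the day 14 arrays. From day 13 to day 14, 0 genes were called (0%), and 1114 had an unadjusted limma p below 0.05. From day 14 to day 15, 10 genes were called (0.0554%), and 2112 had an unadjusted limma p below 0.05.

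The direction was shared by the 4 groups. Of the genes that rose, 189 were higher at day 15 in all 4 groups, and of those that fell all 118 were lower in all 4. Over the whole array 4012 genes (22.2%) had 1 sign in all 4 groups, 2317 higher and 1695 lower. The call itself favours genes with equal differences, so these counts describe the called genes and support nothing. The spread of the day 15 minus day 13 differences over all genes was widest in KO, at 0.292 log2 (SD over genes), followed by 0.252 in TR, 0.24 in HE and 0.194 in WT. A difference of over 1 log2 was seen for 154 genes in KO, 53 in TR, 42 in HE and 31 in WT. The median of the genes that rose was 0.44 in KO, 0.45 in HE, 0.36 in TR and 0.27 in WT, and that of the genes that fell was -0.51, -0.45, -0.37 and -0.29. Each of these values is the difference of 2 animals.

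Whether the course over days differed between the groups was asked with a slope per group. The test of equal slopes called 0 genes (0% of 18057) in limma, with a smallest adjusted p of 0.885 and 868 genes at an unadjusted p under 0.05. The KO slope against the mean of the other 3 called 0 genes (0%), with a smallest adjusted p of 0.174 and 1350 genes at an unadjusted p under 0.05. This fit leaves 4 residual degrees of freedom. Leaving out the KO array of day 13 gave 18 genes with unequal slopes and 33 with a different KO slope, and leaving out that of day 14 gave 11 and 27. These counts then rest on a KO line through 2 animals. Leaving out any of the other 10 arrays gave 0 to 2 genes with unequal slopes and 0 to 3 with a different KO slope.

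Genes were next chosen in some animals and read in others. For each group in turn, genes were called in the other 3 groups and their day 15 minus day 13 difference was taken in the group left out. With WT left out, 159 genes were called, and 86 of 93 higher ones and 59 of 66 lower ones had the same sign in WT. With KO left out the numbers were 44 of 49 and 29 of 37, with HE left out 38 of 39 and 29 of 39, and with TR left out 23 of 27 and 14 of 16. Of all genes, 58.1% to 59.9% had the same sign in the group left out. That share includes the dim genes and pools both directions, so it is not a like background. Differences above 0 made up 56.8% of all genes in WT, 52.5% in KO, 49.4% in HE and 49.3% in TR. Sizes in the left-out group were a median of 0.53 log2 in HE, 0.45 in KO, 0.36 in TR and 0.25 in WT for the higher genes, where the other 3 groups stood at 0.50, 0.50, 0.60 and 0.51. For the lower genes they were -0.30, -0.50, -0.30 and -0.22, where the other 3 groups stood at -0.53, -0.53, -0.58 and -0.50. The 4 fits share arrays with each other, and genes are not replicates.

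An age score gives the same reading per array. Among genes above the median level, the 100 that were most clearly higher and the 100 most clearly lower at day 15 in the other 3 groups (by moderated t) were averaged, and the second mean was subtracted from the first. The score was 0.027, 0.279 and 0.495 in WT at days 13, 14 and 15. In KO the 3 values were -0.414, -0.209 and 0.421. In HE they were -0.237, -0.244 and 0.489, and in TR 0.002, 0.196 and 0.567. In every group the day 15 array exceeded those of days 13 and 14. The gain from day 13 to day 15 was 0.834 in KO, 0.727 in HE, 0.565 in TR and 0.468 in WT. Since each group was scored with its own genes, the levels of different groups are not on a strictly equal scale.

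**Figure D2:**
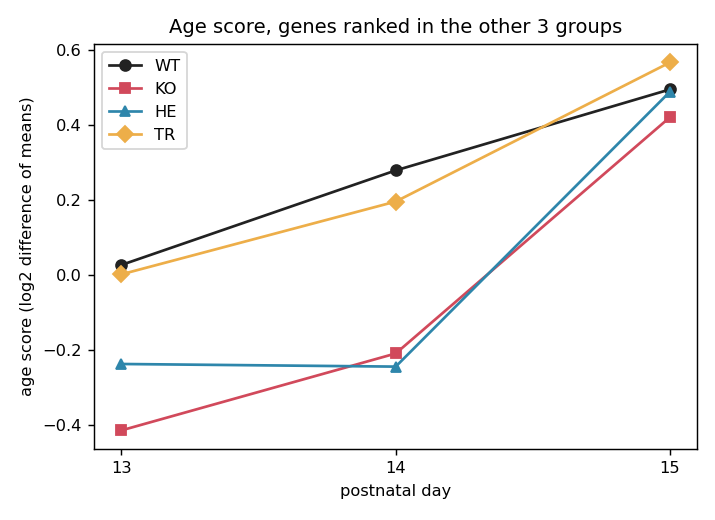
Age score (log2) of each array against postnatal day, 1 line per group, with the genes ranked in the other 3 groups. The day 15 arrays sit between 0.421 and 0.567 and the day 13 arrays between -0.414 and 0.027, and HE is level from day 13 to day 14.

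The batches share no animals, so genes above the median level were ranked by moderated t in 1 batch and read in the other. The 100 ranked highest and the 100 ranked lowest in batch 1 (KO and WT) mostly had the same sign in batch 2 (HE and TR). This held in 97 and 85 cases, together 91%. The share over all genes was 60.5%, but that includes the dim genes, so it is not a like background. Medians of the ranked genes were 0.47 and -0.50 log2 in batch 1 and 0.37 and -0.32 in batch 2. Ranked in batch 2, 98 and 92 had the same sign in batch 1, together 95%, with medians of 0.36 and -0.34 there. Calls within a batch were few, 2 genes in batch 1, where 1980 had an unadjusted limma p below 0.05, and 64 genes in batch 2.

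**Figure D3:**
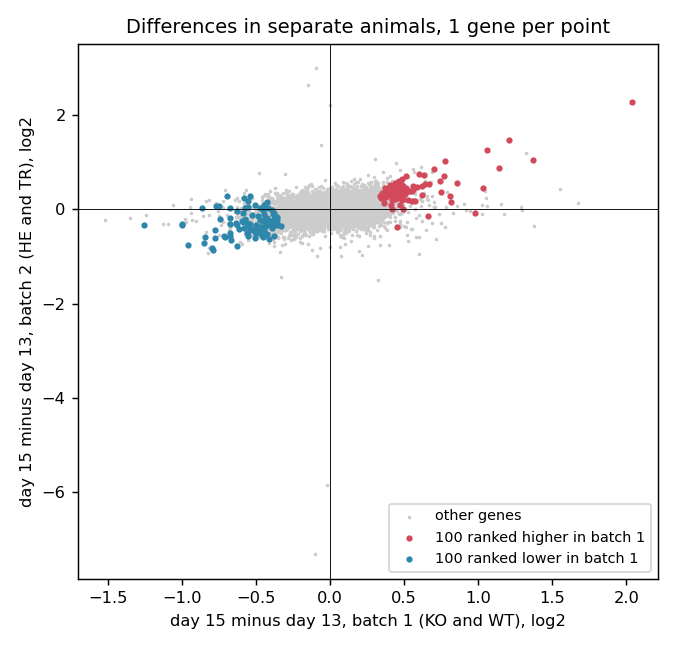
Day 15 minus day 13 difference (log2) in batch 2 against that in batch 1, 1 point per gene. Marked are the 100 genes ranked highest (red) and the 100 ranked lowest (blue) in batch 1. The ranking was by moderated t among genes above the median level, so some unmarked genes lie further out on the batch 1 axis. Of the marked genes 97 red ones lie above 0 and 85 blue ones below 0 on the batch 2 axis. A few unmarked genes at the far ends of the batch 2 axis lie near 0 on the other. Among these are 2-level genes, which changed level between day 13 and day 15 in HE or TR but in neither KO nor WT.

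Batch 3, whose arrays are all labelled day 14, had no part in calling the genes. Of the 191 genes that rose with age, 132 (69.1%) were above 0 in KO minus WT there, against 45.9% of all genes, with a median of 0.101 log2. Of the 118 genes that fell with age, 97 (82.2%) were below 0, against 54.1% of all genes, with a median of -0.147. The medians over the same sets were 0.011 and -0.024 for TR minus WT and 0.004 and -0.013 for HE minus WT, which share the WT arrays. KO thus lay toward the day 15 side of WT on average, but the 3 KO arrays did not do the same.

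The score of the called genes, the mean of those that rose minus the mean of those that fell, was taken for each array. In batch 3 the KO arrays, numbered 1 to 3 in order of deposition, scored 0.543, 0.806 and -0.186. The WT arrays scored 0.158, 0.198 and -0.057, the HE arrays 0.111, 0.056 and 0.173 and the TR arrays 0.000, 0.097 and 0.279. KO replicates 1 and 2 lay above, and KO replicate 3 below, all 9 arrays of the other groups. The KO mean was 0.388 ± 0.514 (SD, n = 3), while WT had 0.100 ± 0.137, HE 0.113 ± 0.059 and TR 0.125 ± 0.142. For scale, the arrays that chose the genes scored -0.458 to 0.045 at day 13, -0.111 to 0.337 at day 14 and 0.566 to 0.732 at day 15. Leaving out KO replicate 2 took the KO minus WT medians to 0.015 and -0.052, and leaving out KO replicate 3 took them to 0.222 and -0.293. KO replicate 1 also exceeded all 23 other arrays by over 1 log2 in 35 genes, where the next array did so in 13, and 2 of the 35 were among the genes called by age.

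The same was read from genes called without any KO array. From WT, HE and TR alone, 49 genes rose and 37 fell. On the day 15 side in KO minus WT of batch 3 lay 35 of the 49, above 0, and 32 of the 37, below 0. Over all genes, dim ones included, 45.9% were above 0 and 54.1% below 0. The medians of the 49 and the 37 genes were 0.162 and -0.272 log2. Their score was 0.586, 0.838 and -0.407 in the 3 KO arrays and -0.376 to 0.188 in the other 9. The labels give no age other than day 14 for these arrays, and what sets the 3 KO arrays apart was not tested.

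In 3 of the 4 genes given above the KO arrays of batch 3 had the widest spread of the 4 groups. ENSMUSG00000091898 was 8.38 ± 0.758 in KO of batch 3 (SD, n = 3), with 7.69 to 9.19, while WT had 7.69 ± 0.263, HE 7.68 ± 0.034 and TR 7.69 ± 0.393. ENSMUSG00000044338 was 8.36 ± 1.377 in KO, with 7.12 to 9.84, while WT had 9.79 ± 0.090, HE 9.64 ± 0.040 and TR 9.56 ± 0.158. ENSMUSG00000094777 was 7.85 ± 0.762 in KO, with 7.35 to 8.72, while WT had 8.23 ± 0.466, HE 8.24 ± 0.343 and TR 8.39 ± 0.429. In these 3 genes the range of the KO arrays overlapped that of WT. ENSMUSG00000032487 was 6.87 ± 0.519 in KO (SD, n = 3), with 6.56 to 7.47, and 6.30 ± 0.225 in WT, with 6.09 to 6.53. HE had 6.43 ± 0.304 and TR 6.01 ± 0.550, the widest spread for this gene. Its KO arrays all lay above its WT arrays, but their range overlapped those of HE and TR.

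**Figure D4:**
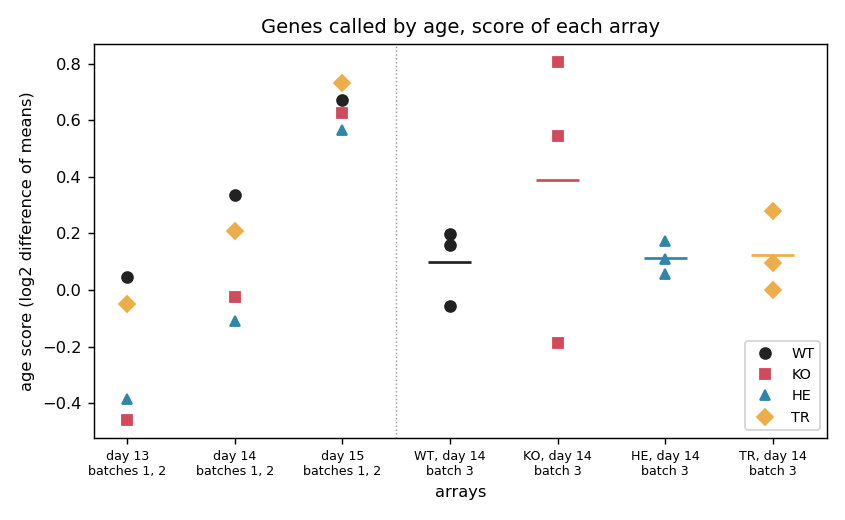
Score of the genes called by age (log2), 1 point per array, for the day 13, 14 and 15 arrays of batches 1 and 2, which chose the genes, and for the 4 groups of batch 3, with the mean of 3 arrays as a bar. The KO arrays of batch 3 run from -0.186 to 0.806, while the other 9 arrays of batch 3 run from -0.057 to 0.279.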

How the data were processed

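Per the labels' protocols, total RNA of the frontal lobe was cleared of DNA, copied from its poly(A) ends into labelled cRNA and hybridized to Affymetrix mouse arrays. The deposited values are log2 values, 1 per Ensembl gene and array, made by the authors with affy and RMA per the submitters' processing notes. Neither tool versions nor the assignment of probes to genes, nor any batch adjustment, is described in the labels. An additive shift between batches cancels in differences within a group.

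All 18057 genes were fitted with limma 3.58.1 in R 4.3.3, without a filter. The day fit used 12 arrays with a term per group and per day and an intensity trend (6 residual degrees of freedom, prior 7.15). The slope fit had a line per group (4 residual degrees of freedom, prior 6.65). Tests were two-sided, with Benjamini-Hochberg adjustment over all genes. Arrays were labelled as separate samples of different ages, and nothing says more about their origin. With 1 array per group and day, the spread behind the p-values of the day fit is how unevenly the groups changed over days. Differences between animals and unlike courses of the groups cannot be told apart in it. The 1-day steps, the readings in a left-out group, the scores and the term for the 2-level gene were added after the data were seen. The members, lists and tests were chosen with earlier results of these data known. The rule for named genes took the largest differences among called genes with 1 sign in all groups and a level above the 25th percentile, cut to 2 per direction since identifiers could not be named. Gene lists and markers given by symbol, a rule naming Arg1 and the naming of genes by slope were not applied for this reason. The code was tested on simulated data.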

Additional observations from a re-analysis of the deposited data

How the results depend on the processing

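The number of genes called between day 13 and day 15 depended on the arrays and the model, from 309 as reported. It was 28 with all 24 arrays (a term per group and batch) and 447 with all but the 3 KO arrays of batch 3, chosen after seeing the data. It was 171 without the day 14 arrays, 120 without the intensity trend, 486 among genes above the median level, 4 with batch in place of group, and 2 and 64 in batch 1 and batch 2 alone. It was 202 with a term for the 2-level gene of widest gap, added after seeing the data, of which 191 were among the 309. Leaving out 1 array or 1 group gave 34 to 333. Of single arrays, leaving out HE (34) or KO (41) at day 15, any array of day 13 (120 to 184) or WT at day 14 (202) moved the count by over 1.5 times, and leaving out a group gave 43 (TR), 78 (HE), 86 (KO) and 159 (WT). What moved the counts was not tested. The share that rose was 61.8%, 56.4% after renewed quantile normalization and 58.1% after median centring. It was 50% without the HE group and 67.9% with all 24 arrays, the ends of its range over the alternatives. The 4 genes kept their sign in every alternative in which they were tested. ENSMUSG00000091898 passed the threshold in all 28, and ENSMUSG00000094777 in 25, with a limma adjusted p of 0.141 with all 24 arrays, 0.144 with batch in place of group and 0.0596 in batch 1 alone. The count of genes off the midpoint was 0 in all 10 alternatives. Leaving out 1 array gave 0 to 18 genes with unequal slopes and 0 to 33 with a different KO slope, and the other 6 alternatives gave 0. The shares in separate animals ranged from 88.5% to 89.5% and from 93.5% to 94% in 3 alternatives each. The KO minus WT medians in batch 3 ran from 0.015 to 0.222 and from -0.293 to -0.052 when 1 array was left out. The group term of the reported fit already acts as a block over days, since each group has 1 array per day, and the labels pair no animals beyond that.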

Other observations

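Two-level genes set single arrays apart. The gene of widest gap read 8.73 or more in 13 arrays and 3.79 or less in the other 11. A further gene ran the opposite way, at 12.19 in the HE array of day 13 and 11.98 in the TR array of day 13. The HE array of day 15 was low in both, at 2.25 and 4.82, the only one of the 24 arrays in which both were low. Between day 13 and day 15 the gene of widest gap changed level in TR alone and the opposite gene in HE and TR, while KO and WT stayed at 1 level in both genes. Between arrays of the same state these genes also differed by batch, for example 10.52 in WT at day 13 and 8.73 in TR at day 15. The files do not name these genes, and whether the levels follow the sex of the animals, which the labels do not give, was not tested.

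Of 25 sets of 4 arrays or 4 groups examined for a value far from the others, 0 held one, where chance would give 1.25.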
